A study of Mus musculus with 8 samples.

Results

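The genes described here are the axon guidance ligands and receptors of the mouse, measured by RNA-seq in 4 populations of stromal cells from newborn bone marrow. They were chosen by gene symbol, with earlier results of these data known. The ligands are the semaphorins of classes 3 to 7, the Slits, the netrins and the ephrins, and the receptors are the plexins, the neuropilins, the Robo receptors, the netrin receptors (Dcc, Neo1 and the Unc5 family) and the Eph receptors. Of the 15880 gene identifiers with values, 65 are members, 35 of them for ligands and 30 for receptors. The annotation of the mouse build NCBIM37 lists 72 such identifiers, and the other 7 (Slit1, Robo3, Epha6, Epha8, Epha10, Ephb1 and an extra identifier of Ntng1) were not analysed here. Ntng2 and Ntn5 did not enter the members and are counted with the other pathway genes below. Efna5 has a pair of identifiers, ENSMUSG00000048915 (chr17:62953533-63230666) and ENSMUSG00000090425 (chr17:62953641-62956056). The latter lies within the former on the same strand, so reads of this gene can be split between them. A value over 2 in at least 2 libraries was reached by 61 of the 65 members, and the 4 that did not reach it were Sema4f, Efna3, Dcc and Unc5d.

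Guidance molecules steer growing axons and migrating cells: a ligand that is secreted or held on a neighbouring cell binds a receptor on the moving cell and attracts or repels it. Secreted class 3 semaphorins signal through neuropilins with plexins, other semaphorins bind plexins directly, and Slits bind Robo receptors. Netrins such as Ntn1 bind Dcc, Neo1 and Unc5 receptors, and ephrins bind Eph receptors in contacts where both cells can respond. In bone, semaphorins and ephrins also act between osteoblasts and osteoclasts, and semaphorins, Slits, netrins and ephrins act on blood vessels.

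The study asked which stromal cells of the newborn marrow carry the features of mesenchymal stem cells and of the niche of blood stem cells. Limb and shoulder bones of heterozygous *Nes-Gfp* pups on a C57BL/6 background, taken on postnatal day 1, were crushed and digested. These bones are the ones in the sample labels, whereas the paper's methods name long bones and sterna. Cells negative for CD45, CD31 and Ter119 were sorted by GFP and by surface Pdgfrα. GFP in these mice is driven by regulatory elements of the rat nestin gene, so it marks cells in which this transgene is active. Each library came from 15000 to 80000 sorted cells of a pool of 3 pups, with 2 libraries per population and 8 in all. The 4 populations are GFP+ Pdgfrα+ cells, called double-positive from here on, GFP+ Pdgfrα- cells (GFP single-positive), GFP- Pdgfrα+ cells (Pdgfrα single-positive) and GFP- Pdgfrα- cells (double-negative).

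The value of a gene is its normalized signal, the reads plus a small constant per 1e6 reads of an effective library size, on a linear scale. Reads per library were 3564158 and 3329432 in double-positive cells, 3644103 and 3427644 in GFP single-positive cells, 3869275 and 3221217 in Pdgfrα single-positive cells, and 4058258 and 5302762 in double-negative cells. A value of 3 reads, between 0.825 and 1.04 depending on the library, was taken as the floor, and a population is at the floor when both its libraries are at or under 3 reads. This floor covers counting error only. Differences are given as log2 of the value plus 1 in the fit of limma across all 15880 genes, as double-positive minus the others, a single-positive population minus double-negative, or Pdgfrα single-positive minus GFP single-positive. Folds are ratios of mean values without the added 1, so at low values they can be larger than the log2 difference beside them implies. A fold given as "at least" divides by the value of 3 reads, averaged over the libraries of the population at the floor. A gene counts as called at a two-sided Benjamini-Hochberg adjusted p of at most 0.05. An exact permutation test of 2 against 2 cannot go below 0.333, so the calls rest on a spread that limma shares between genes. All comparisons between populations reuse the same 8 libraries.

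The sort can be checked on its own genes. Pdgfra had values of 839 and 794 in Pdgfrα single-positive cells, 733 and 754 in double-positive cells, 18.1 and 10.4 in GFP single-positive cells and 3.30 and 4.36 in double-negative cells. It was high in the 4 libraries sorted as Pdgfrα+ and low in the 4 others, with no overlap. The endogenous gene of the transgene's promoter, Nes, had values of 149 and 176 in GFP single-positive cells, 57.6 and 72.0 in double-positive cells, 27.4 and 47.1 in Pdgfrα single-positive cells and 3.59 and 9.08 in double-negative cells. Its libraries were higher in GFP+ than in GFP- cells within each Pdgfrα class.

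Most members were low in the cells that carry neither marker. The summed signal of the 65 members was 4566 and 4159 in double-positive cells, 3205 and 3130.2 in Pdgfrα single-positive cells, 2422 and 2516 in GFP single-positive cells, and 354 and 468 in double-negative cells. Members above 3 reads numbered 60 and 61 in the libraries of double-positive cells, 59 and 62 in GFP single-positive cells, 57 and 61 in Pdgfrα single-positive cells, and 32 and 44 in double-negative cells. The limma F test over the 4 populations called 62 of the 65 members, against 66.0% of all genes, and the 3 not called were Efna3, Robo4 and Dcc. Of the members, 58 had their lowest mean in double-negative cells, 30 of 35 ligands and 28 of 30 receptors, against 45.3% of all genes. In pooled cells, fewer cells of a type and less RNA per cell cannot be told apart.

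Against double-negative cells, double-positive cells had 58 of 65 members called (59.3% of all genes were called), 56 higher (32.9%) and 2 lower (26.4%), Sema4b and Robo4. The median log2 difference of the members was 3.02, and that of all genes was 0.20. For members it was 3.16 with those at the floor in a single population set to their bound, the log2 of the "at least" fold. The 2 members at the floor in both populations have no bound and were left out of that median. So were 4 in the comparison of Pdgfrα single-positive and 3 in that of GFP single-positive cells below. In Pdgfrα single-positive cells against double-negative cells 55 members were called (59.7% of all genes), 51 higher (32.9%) and 4 lower (26.8%: Sema4b, Sema4d, Plxnc1 and Ntn4), with a member median of 2.54, or 3.00 at the bound, beside 0.17 over all genes. In GFP single-positive cells against double-negative cells 54 were called (53.7% of all genes), 51 higher (30.1%) and 3 lower (23.6%: Sema4b, Sema4d and Plxnc1), and the medians were 2.27 for members, 2.54 at the bound and 0.15 for all genes. In GFP single-positive cells 25 of 35 ligands and 26 of 30 receptors were higher, and in Pdgfrα single-positive cells 28 ligands and 23 receptors. Centring each library on its median moved the median of all genes to −0.28 in double-positive cells, −0.28 in Pdgfrα single-positive cells and −0.30 in GFP single-positive cells against double-negative cells, and quantile normalization moved it to −0.16, −0.15 and −0.14. With centring, the split of all genes went from 5221 higher and 4189 lower to 3834 and 5846 in double-positive cells, from 5226 and 4250 to 3913 and 5720 in Pdgfrα single-positive cells, and from 4787 and 3740 to 3550 and 5569 in GFP single-positive cells. Members were then 52 higher and 5 lower in double-positive cells, 47 and 5 in Pdgfrα single-positive cells, and 48 and 3 in GFP single-positive cells, with medians of 2.54, 2.09 and 1.81.

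The double-negative libraries also stood apart outside these families. Hbb-b1, a globin gene of red blood cells, had values of 4362 and 7619 in double-negative cells, 51.4 and 32.0 in GFP single-positive cells, 15.3 and 14.2 in double-positive cells and 19.0 and 12.9 in Pdgfrα single-positive cells. Klf1, a transcription factor of the same lineage, had values of 149.5 and 169 in double-negative cells, 2.55 and 0.900 in GFP single-positive cells, 1.24 and 0.431 in double-positive cells and 1.13 and 0.743 in Pdgfrα single-positive cells. Both were far higher in the double-negative libraries than in any other. Ank1, which acts in the membrane skeleton of these cells, had 767 and 819 in double-negative cells, 196 and 247 in GFP single-positive cells, 8.98 and 18.5 in double-positive cells and 4.41 and 5.49 in Pdgfrα single-positive cells, so that GFP single-positive cells stood well above both Pdgfrα+ populations, and Gata1, also of this lineage, was at the floor in double-positive and Pdgfrα single-positive cells. Reads on mitochondrial genes made up 36.9% and 39.1% of the double-negative libraries, 24.2% and 22.2% of the GFP single-positive libraries, 13.0% and 13.7% of the double-positive libraries and 14.4% and 14.5% of the Pdgfrα single-positive libraries. Of the 8 white blood cell markers listed, 5 had values, and their sums, led by Lyz2, were 47.8 and 45.2 in double-negative cells, 20.5 and 15.6 in GFP single-positive cells, 19.5 and 8.76 in Pdgfrα single-positive cells and 3.45 and 16.0 in double-positive cells. Ptprc, Csf1r and Cd79a were at the floor in Pdgfrα single-positive cells. The part of these cells and reads in the low member signal was not tested.

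**Figure D1:**
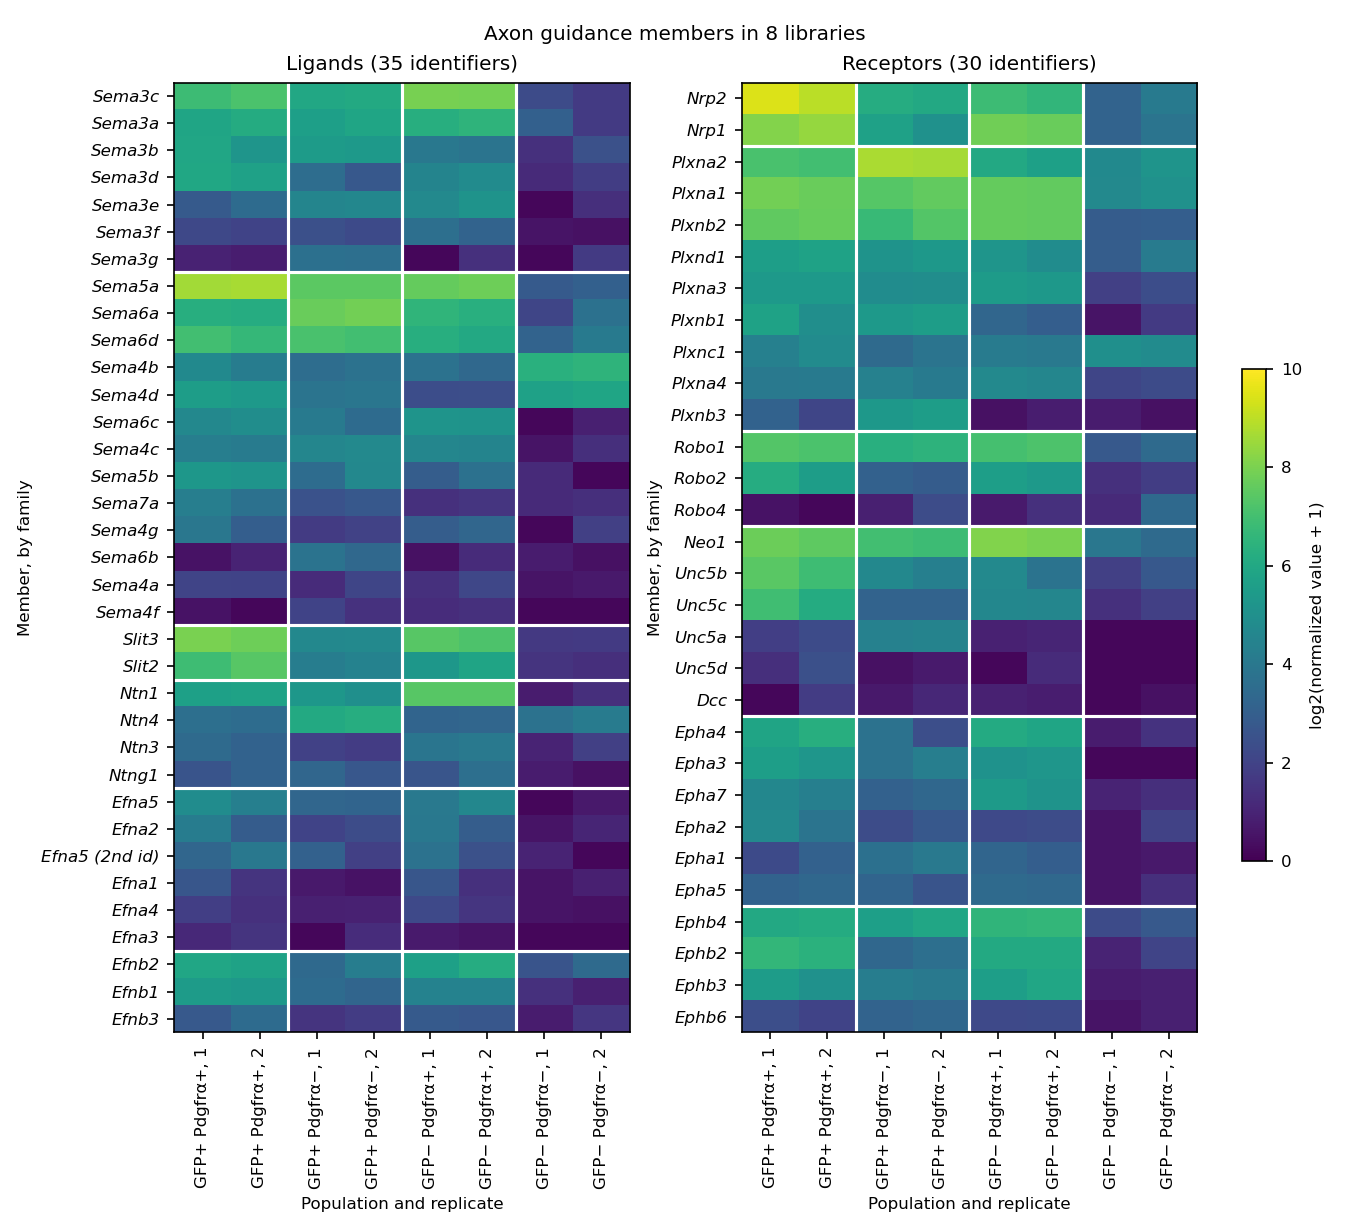
Heat map of log2 of the normalized value plus 1 (colour, 0 to 10) for the 35 ligand and 30 receptor identifiers (vertical axis, by family) in the 8 libraries (horizontal axis, 2 per population, by GFP and Pdgfrα). Columns of double-negative cells are dark for all but a few members, among them Sema4b, Sema4d and Plxnc1.

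Among the 3 populations that carry at least 1 marker, an F test chosen after seeing the data called 45 of 65 members, 25 ligands and 20 receptors, against 29.6% of all genes. The mean was highest over all 4 populations in double-positive cells for 31 members (19.4% of all genes), in Pdgfrα single-positive cells for 17 (24.0%), in GFP single-positive cells for 13 (21.0%) and in double-negative cells for 4 (35.6%). The split was 16, 10, 7 and 2 for ligands and 15, 7, 6 and 2 for receptors, in the same order of populations. The highest mean was called against the next one for 7 of 65 members in double-positive cells (1.40% of all genes): Slit2, Sema5a, Sema7a, Epha2, Unc5b, Unc5c and Nrp2. The same held for 7 members in GFP single-positive cells (4.67%: Sema3g, Sema6a, Sema6b, Ntn4, Unc5a, Plxna2 and Plxnb3), for Sema3c and Ntn1 in Pdgfrα single-positive cells (1.61%) and for Sema4b in double-negative cells (19.2%). Of the 7 in double-positive cells 4 kept the call without replicate 1 of double-positive cells and 4 without replicate 1 of Pdgfrα single-positive cells, and only Nrp2 and Unc5b kept it whichever library was left out. Sema6a and Sema3c lost it without any 1 library of the 2 populations compared, and the others in the 3 remaining populations kept it.

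The comparison of double-positive with Pdgfrα single-positive cells asks what goes with GFP among Pdgfrα+ cells. It called 16 of 65 members, against 5.35% of all genes, with 13 higher in double-positive cells (3.22%) and 3 lower (2.13%). The 16 are 9 of 35 ligands, 6 higher and 3 lower (Ntn1, Sema3c and Sema3e), and 7 of 30 receptors, all 7 higher. The median was 0.25 for members, 0.26 at the bound and 0.00 for all genes. The count was 8 without replicate 1 of double-positive cells, and 6 and 7 without replicate 1 or replicate 2 of Pdgfrα single-positive cells. Called in every alternative that was run were 5 of the 16: Nrp2, Sema4d, Sema7a, Unc5b and Ntn1.

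The comparison of double-positive with GFP single-positive cells asks what goes with Pdgfrα among GFP+ cells. It called 39 members, against 24.2% of all genes, with 30 higher in double-positive cells (13.1%) and 9 lower (11.1%). Ligands gave 15 higher and 6 lower, and receptors 15 higher and 3 lower. The median was 0.80 for members, 0.88 at the bound and −0.02 for all genes. Without replicate 1 of GFP single-positive cells 21 members were called, and 20 of the 39 were called in every alternative run.

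The populations with a single marker differed from each other as well. Of the members 34 were called, against 27.9% of all genes, 22 higher in Pdgfrα single-positive cells (14.3%) and 12 higher in GFP single-positive cells (13.5%). Among ligands 10 were higher in Pdgfrα single-positive and 8 in GFP single-positive cells, and among receptors 12 and 4. The median was 0.50 for members, 0.50 at the bound and −0.03 for all genes. Without replicate 2 of Pdgfrα single-positive cells 22 members were called.

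Marker lists of other cell types differed between these populations too. The 7 osteoblast markers all had values, led by Col1a1, and summed to 54940.3 and 40888 in double-positive cells, 17035 and 15507 in Pdgfrα single-positive cells, 3379 and 2811 in GFP single-positive cells and 466 and 597 in double-negative cells. Col1a1 made up most of each sum, and Ibsp, Dmp1, Bglap and Alpl had higher means in GFP single-positive than in Pdgfrα single-positive cells, for example 143 and 49.9 for Ibsp. Bglap and 1 of the identifiers of Runx2 were at the floor in double-negative cells. The 6 tendon and fibroblast markers, led by Thbs4, summed to 3269.8 and 3049 in Pdgfrα single-positive cells, 808 and 824 in double-positive cells, 127 and 112 in GFP single-positive cells and 78.1 and 84.4 in double-negative cells, with Scx at the floor in double-positive and double-negative cells and Kera in GFP single-positive cells. The sums of GFP single-positive cells passed those of double-negative cells through Dpt (means of 103 and 2.04), while Thbs4, Tnmd, Kera and Mkx were lower in GFP single-positive than in double-negative cells by mean. All 7 chondrocyte markers had values, led by Col2a1, and their sums were 609 and 1971 in Pdgfrα single-positive cells, 513 and 929 in double-negative cells, 297 and 374 in double-positive cells and 67.6 and 97.6 in GFP single-positive cells, with replicate 2 of Pdgfrα single-positive cells far above replicate 1. Sox9 was lowest in double-negative cells by mean, and Matn1 and Matn3 were highest there. Matn1 was at the floor in the 3 populations with a marker.

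In GFP single-positive cells other lists were high. The 8 glial markers all had values, led by Ngfr, with sums of 478 and 433 in GFP single-positive cells, 197 and 171 in double-positive cells, 72.4 and 72.5 in Pdgfrα single-positive cells and 27.6 and 42.2 in double-negative cells. Ngfr itself took another order, with 94.6 and 109 in double-positive cells, 59.1 and 49.5 in Pdgfrα single-positive cells, 33.6 and 23.3 in GFP single-positive cells and 2.44 and 2.71 in double-negative cells, and the other 7 had their highest mean in GFP single-positive cells. Sox10, Fabp7, Foxd3 and Cdh19 were at the floor in Pdgfrα single-positive cells, and Foxd3 and Cdh19 in double-negative cells. The 8 pericyte and smooth muscle markers, none at the floor, summed to 2279 and 2955 in GFP single-positive cells, 540.2 and 443 in double-positive cells, 387 and 405 in Pdgfrα single-positive cells and 85.0 and 132 in double-negative cells, with Rgs5 the most abundant. Cspg4 differed from this order, with 255 and 259.7 in Pdgfrα single-positive cells, 205 and 146 in double-positive cells, 104 and 147 in GFP single-positive cells and 10.5 and 27.7 in double-negative cells, and the other 7 were highest in GFP single-positive cells by mean. The 7 skeletal muscle markers, led by Pax7 and sharing Des with the pericyte list, summed to 769 and 803 in GFP single-positive cells, 66.1 and 61.9 in double-positive cells, 32.7 and 27.8 in Pdgfrα single-positive cells and 16.8 and 10.5 in double-negative cells, and Pax7, Myf5, Myod1 and Myog were at the floor in Pdgfrα single-positive cells, as were Ckm, Myf5 and Myod1 in double-negative cells. Of 8 neuron markers 3 had values, and their sums, led by Stmn2, stayed low at 7.94 and 10.8 in Pdgfrα single-positive cells, 5.11 and 3.02 in double-positive cells, 1.34 and 0.643 in GFP single-positive cells and 0.431 and 0.825 in double-negative cells. Tubb3 had its highest mean in double-positive cells, 2.80, and was at the floor in Pdgfrα single-positive cells. Stmn2, Nefm and Tubb3 were all at the floor in GFP single-positive and double-negative cells. The part of glial, vascular, muscle and skeletal cells in the differences between members was not tested.

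Slit3 and Slit2, the secreted ligands of Robo receptors, were higher in both Pdgfrα+ populations than in the others. Slit3 (chr11:34934726-35522009, + strand) had values of 255 and 221 in double-positive cells, 167 and 146 in Pdgfrα single-positive cells, 24.6 and 24.8 in GFP single-positive cells and 2.15 and 2.24 in double-negative cells. The libraries fell into 3 steps, with double-positive and Pdgfrα single-positive cells high, GFP single-positive cells lower and double-negative cells near the floor. It was 9.63-fold higher in double-positive than in GFP single-positive cells (log2 3.21, SE 0.18, adjusted p = 3.35e-07), while double-positive and Pdgfrα single-positive cells were not called different (log2 0.61, adjusted p = 0.0762). Slit2 had values of 117 and 168 in double-positive cells, 38.4 and 56.3 in Pdgfrα single-positive cells, 17.8 and 20.5 in GFP single-positive cells and 1.87 and 1.53 in double-negative cells. Both double-positive libraries lay above all others, and Slit2 was higher in double-positive than in GFP single-positive cells (log2 2.81, SE 0.26, adjusted p = 1.25e-05) and in double-positive than in Pdgfrα single-positive cells (log2 1.57, SE 0.26, adjusted p = 0.00459). The latter call was lost without replicate 2 of double-positive cells (1.31) or replicate 1 of Pdgfrα single-positive cells (1.30). The call of Slit2 as higher in Pdgfrα single-positive than in GFP single-positive cells was lost without replicate 2 of Pdgfrα single-positive cells (0.97). Per kb of exon, Slit3 was the highest ligand of double-positive cells, at a level of 39.3, and had 25.8 in Pdgfrα single-positive cells and 4.08 in GFP single-positive cells.

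The secreted class 3 semaphorins did not share 1 pattern. Sema3c, which binds neuropilins with plexins, had values of 244 and 238 in Pdgfrα single-positive cells, 116 and 142 in double-positive cells, 62.0 and 67.3 in GFP single-positive cells and 3.88 and 2.24 in double-negative cells. The populations did not overlap, and Pdgfrα single-positive cells were highest. The difference from GFP single-positive cells (log2 1.88, SE 0.21, adjusted p = 3.7e-05) was called in every alternative, whereas that from double-positive cells (log2 −0.91, SE 0.21, adjusted p = 0.0257) was lost without any 1 of the 6 libraries with a marker, for example without replicate 2 of double-positive cells (−1.05). Sema3a, which repels axons through Nrp1 with plexins, had values of 76.5 and 89.5 in Pdgfrα single-positive cells, 57.6 and 70.0 in double-positive cells, 48.4 and 58.5 in GFP single-positive cells and 7.32 and 2.24 in double-negative cells. The 6 libraries with a marker lay close together, and the F test over those 3 populations did not call it (adjusted p = 0.368).

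Sema3e, which can bind Plxnd1 without a neuropilin, had values of 25.1 and 33.7 in Pdgfrα single-positive cells, 22.5 and 23.5 in GFP single-positive cells, 6.21 and 10.2 in double-positive cells and 0.144 and 1.53 in double-negative cells. Among cells with a marker it was lowest in double-positive cells, against Pdgfrα single-positive cells (log2 −1.74, SE 0.41, adjusted p = 0.0291) and against GFP single-positive cells (log2 −1.42, SE 0.41, adjusted p = 0.0257). Leaving out replicate 1 of double-positive cells ended both calls (−1.43 and −1.10), as did either library of GFP single-positive cells, and the first was also lost without any 1 of the other libraries with a marker. Sema3g, a ligand of Nrp2, had values of 11.8 and 11.7 in GFP single-positive cells, 0.967 and 0.719 in double-positive cells, 0.126 and 1.63 in Pdgfrα single-positive cells and 0.144 and 2.24 in double-negative cells. Only the GFP single-positive libraries rose above 2.24, and Sema3g was at least 11.9-fold higher there than in double-positive cells (adjusted p = 0.00267). Sema3d was higher in double-positive than in GFP single-positive cells (log2 2.69, SE 0.34, adjusted p = 0.000146), from means of 57.1 and 8.30. Sema3b had means of 47.9 and 42.7 in the GFP+ populations and 14.3 in Pdgfrα single-positive cells. Sema3f had its highest mean in Pdgfrα single-positive cells, 9.95.

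Of the membrane semaphorins of classes 4 to 7, Sema5a had the highest level per kb of exon in double-positive cells, 33.5. Sema5a, a transmembrane ligand with thrombospondin repeats, had values of 394 and 415 in double-positive cells, 200.1 and 223 in Pdgfrα single-positive cells, 177 and 179 in GFP single-positive cells and 6.18 and 7.43 in double-negative cells. The double-positive libraries were highest and did not overlap with any other. The difference from GFP single-positive cells (log2 1.18, SE 0.14, adjusted p = 9.86e-05) was called in every alternative, and that from Pdgfrα single-positive cells (log2 0.93, SE 0.14, adjusted p = 0.00275) was lost without replicate 1 of Pdgfrα single-positive cells (0.86). Sema6a, a ligand of Plxna2 and Plxna4, had values of 207 and 232 in GFP single-positive cells, 91.4 and 78.3 in Pdgfrα single-positive cells, 76.9 and 72.6 in double-positive cells and 3.30 and 12.1 in double-negative cells. It was highest in GFP single-positive cells, 2.94-fold above double-positive cells (log2 −1.54, SE 0.37, adjusted p = 0.00995), a call that was lost without any 1 of the libraries of those populations, for example without replicate 1 of GFP single-positive cells (−1.62). Sema6b, from the same class, had values of 13.0 and 9.39 in GFP single-positive cells, 0.414 and 1.01 in double-positive cells, 0.378 and 1.34 in Pdgfrα single-positive cells and 0.718 and 0.354 in double-negative cells. The libraries outside GFP single-positive cells were at or just above the floor, and Sema6b was at least 11.3-fold higher in GFP single-positive than in double-positive cells (adjusted p = 0.000448).

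Sema4d, a ligand of Plxnb1 known for holding back osteoblasts, took a course of its own. It had values of 51.6 and 57.9 in double-negative cells, 46.3 and 41.5 in double-positive cells, 13.2 and 14.3 in GFP single-positive cells and 4.16 and 4.31 in Pdgfrα single-positive cells. Libraries of double-negative and double-positive cells were high and those of Pdgfrα single-positive cells lowest, with no overlap between populations. Sema4d was 10.4-fold higher in double-positive than in Pdgfrα single-positive cells (log2 3.099, SE 0.23, adjusted p = 1.78e-05), and double-positive cells were not called different from double-negative cells (log2 −0.31, adjusted p = 0.256). Sema4b, also of class 4, had values of 80.9 and 89.96 in double-negative cells, 25.8 and 17.4 in double-positive cells, 10.8 and 12.7 in GFP single-positive cells and 12.5 and 9.36 in Pdgfrα single-positive cells. Both double-negative libraries lay far above the rest, 7.82-fold above Pdgfrα single-positive cells (log2 −2.87, SE 0.26, adjusted p = 1.13e-06) and 7.26-fold above GFP single-positive cells (log2 −2.76, SE 0.26, adjusted p = 2.23e-06).

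Sema7a, which is held by a lipid anchor and binds Plxnc1 and an integrin, had values of 18.6 and 12.2 in double-positive cells, 4.73 and 5.79 in GFP single-positive cells, 1.64 and 1.93 in Pdgfrα single-positive cells and 1.29 and 1.53 in double-negative cells. The double-positive libraries were highest, and Sema7a was 8.65-fold higher there than in Pdgfrα single-positive cells (log2 2.53, SE 0.38, adjusted p = 0.00253). The difference between double-positive and GFP single-positive cells (log2 1.37, SE 0.38, adjusted p = 0.0216) was lost without replicate 1 of double-positive cells (1.08) or replicate 1 or 2 of GFP single-positive cells (1.25 and 1.49). Its call in GFP single-positive against double-negative cells (log2 1.37, SE 0.38, adjusted p = 0.00915) was lost without replicate 2 of GFP single-positive cells (1.25) and with centring or quantile normalization. Of the other 7 in these classes, 6 spanned means from 3.097 for Sema4a to 112 for Sema6d in double-positive cells, with Sema4c at 17.9, Sema4g at 10.9, Sema6c at 26.9 and Sema5b at 36.6. Sema4f was at the floor in double-positive and double-negative cells.

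The netrins Ntn1 and Ntn4 were high in different populations. Ntn1, the ligand of Dcc, Neo1 and Unc5 receptors, had values of 167 and 166 in Pdgfrα single-positive cells, 49.9 and 53.0 in double-positive cells, 38.7 and 30.5 in GFP single-positive cells and 0.718 and 1.53 in double-negative cells. Both Pdgfrα single-positive libraries stood above the rest, 3.23-fold above double-positive cells (double-positive against Pdgfrα single-positive cells, log2 −1.67, SE 0.24, adjusted p = 0.00172) and 4.81-fold above GFP single-positive cells (log2 2.24, SE 0.24, adjusted p = 2.62e-05). Exons of Ntn1 overlap another annotated gene on the same strand. Ntn4, a netrin of basement membranes that binds laminin, had values of 66.2 and 74.5 in GFP single-positive cells, 12.5 and 17.1 in double-negative cells, 11.5 and 10.5 in double-positive cells and 8.45 and 8.76 in Pdgfrα single-positive cells. The GFP single-positive libraries were the only high ones, 6.41-fold above double-positive cells (log2 −2.57, SE 0.25, adjusted p = 1.79e-05), and double-negative cells came next. The call of Pdgfrα single-positive against double-negative cells (log2 −0.70, SE 0.25, adjusted p = 0.0285) was lost without replicate 2 of double-negative cells (−0.49) and without any 1 library of Pdgfrα single-positive or GFP single-positive cells. Ntn3, whose exons also overlap a gene on the same strand, had its highest mean in Pdgfrα single-positive cells, 14.6, and Ntng1, a lipid-anchored relative, had means from 6.51 to 8.30 in the populations with a marker.

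Of the 9 ephrin identifiers 5 were called higher in double-positive than in GFP single-positive cells (13.1% of all genes) and 3 in Pdgfrα single-positive than in GFP single-positive cells (14.3%), with none lower. With replicate as a block, Efna5 lost its call between the single-positive populations. The 5 fell to 3 without replicate 1 of double-positive cells and to 2 without either library of GFP single-positive cells, and the 3 fell to 1 without replicate 1 of Pdgfrα single-positive cells or either library of GFP single-positive cells. Efnb2, the ligand of Ephb4, had values of 50.8 and 72.6 in Pdgfrα single-positive cells, 59.0 and 53.6 in double-positive cells, 9.59 and 17.6 in GFP single-positive cells and 5.03 and 10.02 in double-negative cells. The 4 Pdgfrα+ libraries were above the 4 others, and double-positive exceeded GFP single-positive cells (log2 2.03, SE 0.34, adjusted p = 0.000990). Efnb1 had values of 43.8 and 39.0 in double-positive cells, 20.5 and 20.3 in Pdgfrα single-positive cells, 10.3 and 8.62 in GFP single-positive cells and 1.58 and 0.825 in double-negative cells. It fell without overlap between populations, and again double-positive exceeded GFP single-positive cells (log2 2.02, SE 0.30, adjusted p = 0.000491).

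Efna5, here the identifier with several exons, had values of 28.3 and 19.1 in double-positive cells, 15.5 and 23.6 in Pdgfrα single-positive cells, 8.86 and 8.36 in GFP single-positive cells and 0.144 and 0.590 in double-negative cells. The Pdgfrα+ libraries overlapped with each other and lay above those of GFP single-positive cells (log2 1.34, SE 0.37, adjusted p = 0.0195 for double-positive against GFP single-positive cells), a call that was lost without replicate 1 of double-positive cells (1.07) or without replicate 1 or 2 of GFP single-positive cells (1.38 and 1.30). Efna2, which like Efna5 is held by a lipid anchor, had values of 17.3 and 6.47 in double-positive cells, 15.0 and 6.68 in Pdgfrα single-positive cells, 3.04 and 3.99 in GFP single-positive cells and 0.431 and 1.06 in double-negative cells. Replicates of Pdgfrα+ cells differed by more than 2-fold, and double-positive cells were not called against GFP single-positive cells (log2 1.38, adjusted p = 0.0702). The single-exon identifier of Efna5 had 8.98 and 15.1 in double-positive cells. Other ephrins were low: Efna1, Efna3, Efna4 and Efnb3 had means between 1.56 and 8.07 in double-positive cells.

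**Figure D2:**
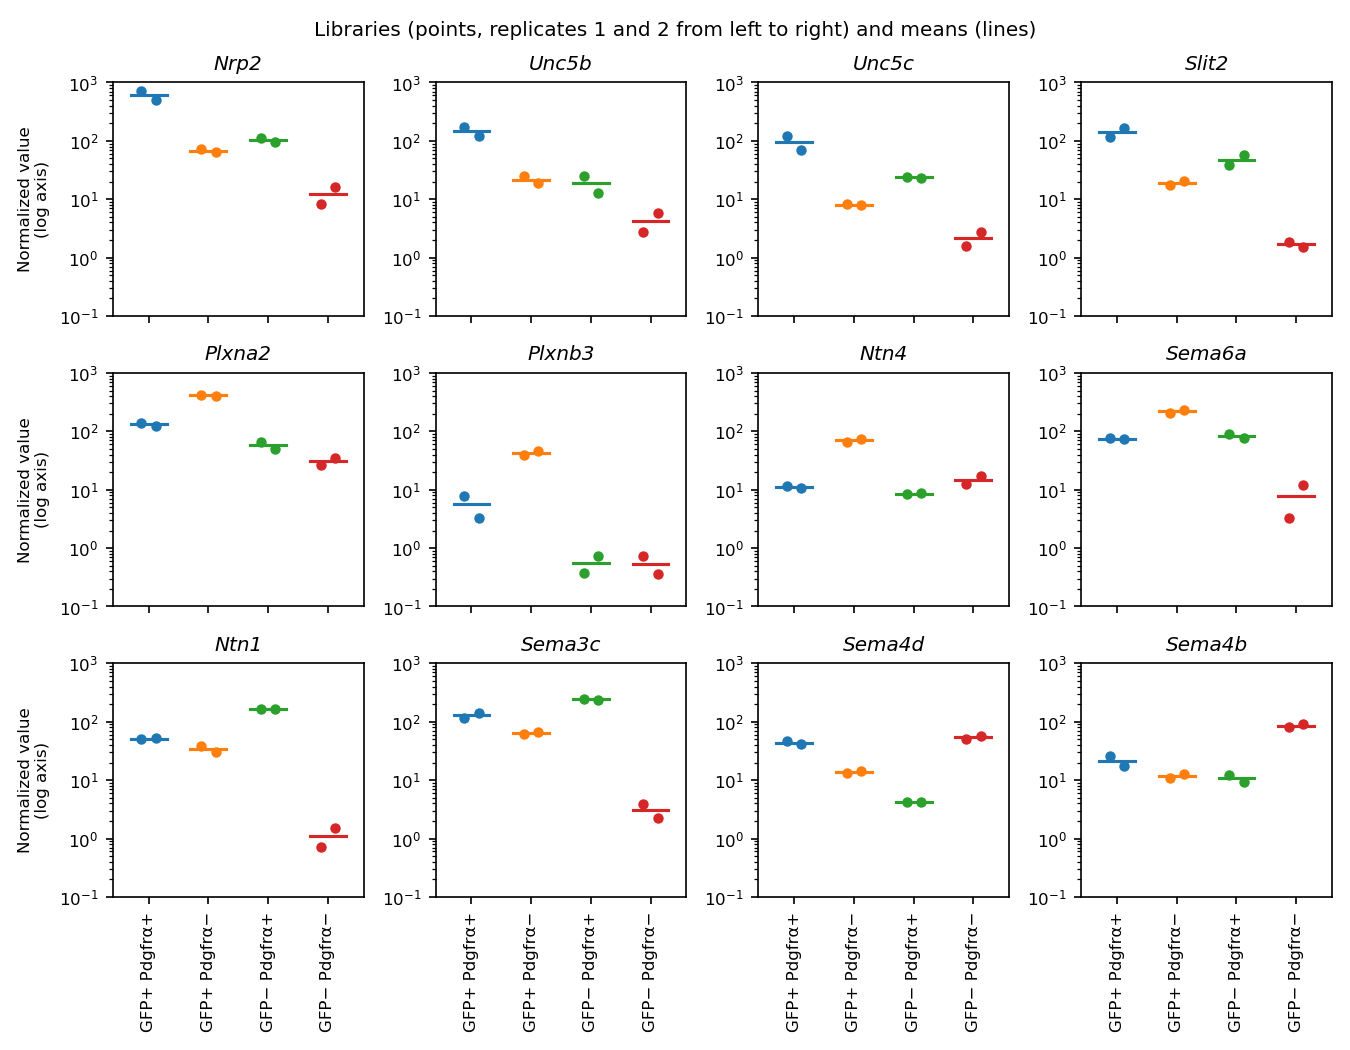
Normalized value (log axis) of 12 members in the 4 populations (horizontal axis), with points for the 8 libraries and lines for the population means. Nrp2, Unc5b, Unc5c and Slit2 are highest in double-positive cells, Plxna2, Plxnb3, Ntn4 and Sema6a in GFP single-positive cells, Ntn1 and Sema3c in Pdgfrα single-positive cells, and Sema4b and Sema4d in double-negative cells.

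Among receptors, the neuropilins had the highest levels per kb of exon in double-positive cells. Nrp2 (chr1:62749859-62865269, + strand), a co-receptor for class 3 semaphorins and for vascular growth factors, had values of 706 and 494 in double-positive cells, 114 and 94.0 in Pdgfrα single-positive cells, 71.5 and 63.9 in GFP single-positive cells and 8.19 and 16.2 in double-negative cells. Its double-positive libraries were far above all others and no populations overlapped. Nrp2 was 5.78-fold higher in double-positive than in Pdgfrα single-positive cells (log2 2.50, SE 0.26, adjusted p = 0.000214) and 8.86-fold higher than in GFP single-positive cells (log2 3.11, SE 0.26, adjusted p = 6.1e-06). Nrp1 had values of 279 and 344 in double-positive cells, 229 and 208 in Pdgfrα single-positive cells, 52.3 and 32.5 in GFP single-positive cells and 8.19 and 13.3 in double-negative cells. It was high in both Pdgfrα+ populations, above GFP single-positive cells (log2 2.88, SE 0.25, adjusted p = 6.95e-06 for double-positive against GFP single-positive cells), and double-positive and Pdgfrα single-positive cells were not called different (log2 0.50, adjusted p = 0.310). Per kb of exon, Nrp2 had the highest level of any member in double-positive cells, 63.1, followed by Nrp1 at 52.7, whereas in Pdgfrα single-positive cells Nrp1 stood at 37.0 and Nrp2 at 10.9.

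Of the plexins, the signalling receptors of semaphorins, Plxna2, Plxnb3 and Plxnb1 had the lowest adjusted p in the F test over populations with a marker. Plxna2 (chr1:196446023-196643063, + strand), a receptor for Sema6a and, with neuropilins, for class 3 semaphorins, had values of 422 and 401 in GFP single-positive cells, 140.4 and 125 in double-positive cells, 64.7 and 50.0 in Pdgfrα single-positive cells and 26.0 and 35.5 in double-negative cells. The order of populations held in every library, with GFP single-positive cells 3.099-fold above double-positive cells (log2 −1.63, SE 0.18, adjusted p = 4.82e-05). The smaller difference between double-positive and Pdgfrα single-positive cells (log2 1.20, SE 0.18, adjusted p = 0.00241) was lost without replicate 2 of Pdgfrα single-positive cells (1.02). Plxna2 was also the receptor with the highest level per kb of exon in GFP single-positive cells, 27.2, where Sema6a was the highest ligand at 25.1.

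Plxnb3, which can bind Sema5a, had values of 39.7 and 45.9 in GFP single-positive cells, 7.87 and 3.31 in double-positive cells, 0.378 and 0.743 in Pdgfrα single-positive cells and 0.718 and 0.354 in double-negative cells. It was high in both GFP single-positive libraries, low in double-positive cells and at the floor in both GFP- populations. In GFP single-positive cells it was at least 46.8-fold above double-negative cells (adjusted p = 1.52e-06) and 7.66-fold above double-positive cells (log2 −2.82, SE 0.43, adjusted p = 0.000553). Plxnb1, the receptor of Sema4d, had values of 40.9 and 45.9 in GFP single-positive cells, 52.6 and 29.8 in double-positive cells, 8.95 and 6.98 in Pdgfrα single-positive cells and 0.431 and 2.24 in double-negative cells. The libraries of the GFP+ populations overlapped and lay above those of GFP- cells. Plxnb1 was higher in GFP single-positive than in double-negative cells (log2 4.36, SE 0.40, adjusted p = 2.06e-06), and its difference between double-positive and Pdgfrα single-positive cells (log2 2.19, SE 0.40, adjusted p = 0.00776) was lost without replicate 1 of double-positive cells (1.79) or replicate 1 or 2 of Pdgfrα single-positive cells (2.35 and 2.03).

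Plxna1 had values of 234 and 209 in double-positive cells, 199.8 and 195 in Pdgfrα single-positive cells, 164 and 190.2 in GFP single-positive cells and 25.4 and 32.2 in double-negative cells. It was even across cells with a marker, and the F test over those 3 populations did not call it (adjusted p = 0.278). Plxnb2, a receptor of class 4 semaphorins, had values of 188 and 206 in double-positive cells, 199.6 and 191 in Pdgfrα single-positive cells, 106 and 158 in GFP single-positive cells and 6.46 and 6.96 in double-negative cells. It too was high in the 6 libraries with a marker and low in double-negative cells, by 29.1-fold against Pdgfrα single-positive cells (log2 4.67, SE 0.19, adjusted p = 1.08e-09). Unlike Plxna1, it was called in the F test over the 3 populations with a marker (adjusted p = 0.0394), with GFP single-positive cells lowest. Its calls against GFP single-positive cells were lost without replicate 1 of those cells, among other libraries. Plxnc1, the receptor of Sema7a, had values of 30.3 and 27.5 in double-negative cells, 19.7 and 27.2 in double-positive cells, 16.8 and 15.3 in Pdgfrα single-positive cells and 10.1 and 13.2 in GFP single-positive cells. It was the only plexin with its highest libraries in double-negative cells, above GFP single-positive cells (log2 −1.25, SE 0.26, adjusted p = 0.00133 for GFP single-positive against double-negative cells). Replicate 2 of double-positive cells, at 27.2, came close to replicate 2 of double-negative cells, at 27.5. Plxna3, Plxna4 and Plxnd1, the receptor of Sema3e, had means of 40.99, 15.8 and 50.5 in double-positive cells and were not called over the 3 populations with a marker.

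Robo receptors followed the Slits in part. Robo2 had values of 72.2 and 45.9 in double-positive cells, 48.0 and 40.2 in Pdgfrα single-positive cells, 7.65 and 6.56 in GFP single-positive cells and 1.58 and 2.48 in double-negative cells. The 4 Pdgfrα+ libraries were above the others, and double-positive exceeded GFP single-positive cells (log2 2.86, SE 0.30, adjusted p = 3.42e-05). Robo1 had values of 160.3 and 144 in double-positive cells, 133 and 145 in Pdgfrα single-positive cells, 78.1 and 86.8 in GFP single-positive cells and 5.89 and 10.02 in double-negative cells. It was more even, and its call between double-positive and GFP single-positive cells (log2 0.88, SE 0.21, adjusted p = 0.00984) was lost without replicate 1 of double-positive cells (0.80) or replicate 1 of GFP single-positive cells (0.80). Robo4, a receptor of endothelial cells, had values of 1.29 and 9.55 in double-negative cells, 0.850 and 3.99 in GFP single-positive cells, 0.630 and 1.63 in Pdgfrα single-positive cells and 0.414 and 0.144 in double-positive cells. Replicate 2 of double-negative and of GFP single-positive cells were each higher than replicate 1, and the ranges of 3 populations overlapped. The call of Robo4 as lower in double-positive than in double-negative cells (adjusted p = 0.0240) was lost without replicate 2 of double-negative cells (log2 −1.95 with it and −0.85 without it) or without replicate 1 or 2 of double-positive cells (−2.10 and −1.80). The 9 endothelial markers all had values, and their sums showed the same uneven replicates, with 35.2 and 143 in double-negative cells, 53.8 and 113 in GFP single-positive cells, 76.3 and 94.6 in Pdgfrα single-positive cells and 59.2 and 87.0 in double-positive cells. Tek had the highest mean over the 8 libraries but was lowest in double-negative cells, with 0.718 and 6.25, where Cdh5 had 11.6 and 48.0 and Pecam1 12.8 and 27.9. Esam was at the floor in both Pdgfrα+ populations, and Emcn and Tie1 in Pdgfrα single-positive cells. The part of endothelial cells in the values of Robo4 was not tested.

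Of the 6 netrin receptors 2 were called between double-positive and Pdgfrα single-positive cells, both higher in double-positive cells (3.22% of all genes). Unc5b, a receptor that mediates repulsion by netrins, had values of 173 and 119 in double-positive cells, 24.6 and 18.9 in GFP single-positive cells, 24.8 and 12.9 in Pdgfrα single-positive cells and 2.73 and 5.78 in double-negative cells. The double-positive libraries were far above the others, and those of the populations with a single marker overlapped. Unc5b was 7.74-fold higher in double-positive than in Pdgfrα single-positive cells (log2 2.93, SE 0.36, adjusted p = 0.000597) and 6.71-fold higher than in GFP single-positive cells (log2 2.68, SE 0.36, adjusted p = 0.000200). Unc5c had values of 119.7 and 69.4 in double-positive cells, 24.1 and 23.3 in Pdgfrα single-positive cells, 8.13 and 8.10 in GFP single-positive cells and 1.58 and 2.71 in double-negative cells. It was highest in double-positive cells and fell without overlap, and the difference from GFP single-positive cells (log2 3.34, SE 0.31, adjusted p = 1.37e-05) was called in every alternative. That from Pdgfrα single-positive cells (log2 1.90, SE 0.31, adjusted p = 0.00441) was lost without replicate 1 of double-positive cells (1.51) or replicate 1 or 2 of Pdgfrα single-positive cells (1.92 and 1.88).

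Unc5a, of the same family, had values of 20.0 and 21.5 in GFP single-positive cells, 2.62 and 3.88 in double-positive cells, 0.882 and 1.04 in Pdgfrα single-positive cells and 0.144 and 0.118 in double-negative cells. Both GFP single-positive libraries were high, 6.38-fold above double-positive cells (log2 −2.37, SE 0.38, adjusted p = 0.000721) and at least 22.7-fold above double-negative cells (adjusted p = 1.4e-06). Neo1, a receptor of netrins and of repulsive guidance molecules, had values of 274 and 256 in Pdgfrα single-positive cells, 216 and 184 in double-positive cells, 124 and 115 in GFP single-positive cells and 14.8 and 10.02 in double-negative cells. It was high in all 6 libraries with a marker, and per kb of exon it was the second receptor of Pdgfrα single-positive cells at a level of 35.8. Dcc, the receptor that mediates attraction by Ntn1, was low throughout, with a highest library value of 2.44, and Unc5d had at most 4.46.

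Of the 10 Eph receptors 6 were called higher in double-positive than in GFP single-positive cells (13.1% of all genes), 4 of 6 of class A and 2 of 4 of class B, and 6 in Pdgfrα single-positive than in GFP single-positive cells (14.3%), 3 of each class. With all libraries kept, none was called lower in either comparison. The first count fell to 3 without replicate 1 of double-positive or of GFP single-positive cells, and the second to 4 without replicate 1 of GFP single-positive cells or either library of Pdgfrα single-positive cells. Epha4, which binds ephrins of both classes, had values of 56.2 and 76.9 in double-positive cells, 67.7 and 58.1 in Pdgfrα single-positive cells, 12.5 and 4.24 in GFP single-positive cells and 0.718 and 1.77 in double-negative cells. The Pdgfrα+ libraries overlapped with each other and lay above GFP single-positive cells (log2 2.99, SE 0.41, adjusted p = 0.000253 for double-positive against GFP single-positive cells). Epha3 had values of 47.4 and 36.9 in double-positive cells, 33.7 and 36.7 in Pdgfrα single-positive cells, 12.7 and 18.1 in GFP single-positive cells and 0.144 and 0.118 in double-negative cells. No read was found in the double-negative libraries, and Pdgfrα single-positive cells were at least 38.4-fold higher (adjusted p = 2.99e-08). Epha2, a receptor of ephrin-A ligands, had values of 25.0 and 13.4 in double-positive cells, 4.01 and 5.79 in GFP single-positive cells, 3.66 and 4.01 in Pdgfrα single-positive cells and 0.431 and 2.95 in double-negative cells. The double-positive libraries were highest, but the call against Pdgfrα single-positive cells (log2 2.00, SE 0.50, adjusted p = 0.0402) was lost without any 1 of the 6 libraries with a marker, for example replicate 1 of double-positive cells (1.57). The call against GFP single-positive cells (log2 1.73, SE 0.50, adjusted p = 0.0260) was lost without replicate 1 of double-positive cells (1.30) or either library of GFP single-positive cells (1.51 and 1.95). Epha1, Epha5 and Epha7 had highest means of 13.7 in GFP single-positive cells, 9.66 in Pdgfrα single-positive cells and 38.5 in Pdgfrα single-positive cells.

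Ephb2 had values of 98.7 and 83.5 in double-positive cells, 66.9 and 66.4 in Pdgfrα single-positive cells, 9.11 and 11.7 in GFP single-positive cells and 1.01 and 3.18 in double-negative cells. The 4 Pdgfrα+ libraries were all above the others, and double-positive cells were 8.76-fold above GFP single-positive cells (log2 3.02, SE 0.32, adjusted p = 3.53e-05). Ephb3 had values of 47.8 and 59.8 in Pdgfrα single-positive cells, 44.6 and 32.6 in double-positive cells, 17.8 and 15.6 in GFP single-positive cells and 0.718 and 0.825 in double-negative cells. It was at the floor in double-negative cells and at least 58.8-fold higher in Pdgfrα single-positive cells (adjusted p = 1.61e-08). Ephb4, the receptor of Efnb2, had values of 92.7 and 98.2 in Pdgfrα single-positive cells, 65.3 and 69.7 in double-positive cells, 49.2 and 60.1 in GFP single-positive cells and 3.88 and 6.01 in double-negative cells. It was highest in Pdgfrα single-positive cells, but these were not called different from double-positive cells (adjusted p = 0.241). Their call against GFP single-positive cells was lost without replicate 1 of GFP single-positive cells or either library of Pdgfrα single-positive cells. Double-positive and GFP single-positive cells were not called different (log2 0.31, adjusted p = 0.343). Ephb6, which lacks kinase activity, had its highest mean in GFP single-positive cells, 8.63.

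Per kb of exon, the summed level of receptors exceeded that of ligands in the 3 populations with a marker and not in double-negative cells. The sums were 240.7 for ligands and 334.7 for receptors in double-positive cells, 208 and 233.8 in Pdgfrα single-positive cells, 150.1 and 166.2 in GFP single-positive cells, and 39.34 and 23.36 in double-negative cells. In Pdgfrα single-positive cells the ligands with the highest levels per kb were Sema3c at 33.8, Ntn1 at 26.5 and Slit3 at 25.8. Per kb of the longest transcript Slit3 came before Ntn1 there, at 29.9 and 28.3. In double-negative cells the highest ligands per kb of exon were Sema4b at 15.7 and Sema4d at 8.49, and the highest receptor was Plxnc1 at 4.104. Ligands and receptors known to bind each other had high levels in the same population for Sema6a and Plxna2 in GFP single-positive cells and for Ntn1 and Neo1 in Pdgfrα single-positive cells, while Unc5b, also a receptor of Ntn1, was highest in double-positive cells. Of the receptors of Slit3, Robo1 had 15.9 and Robo2 3.57 per kb of exon in double-positive cells. Per kb of the longest transcript these levels were 20.1 and 7.27. No binding was measured.

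Whether GFP went with the same difference in both Pdgfrα classes was tested as an interaction, the log2 difference of GFP+ from GFP- among Pdgfrα+ cells minus that among Pdgfrα- cells. It was called for 43 of 65 members, against 44.3% of all genes, with 40 negative (25.2%) and 3 positive (19.1%), these being Sema4b, Sema4d and Plxnc1. The median was −2.15 for members and −0.16 for all genes, and centring each library moved the latter to 0.27 and the split of all genes from 3032 positive and 3999 negative to 4427 and 2989, with 36 members negative and 4 positive. Negative values go with the low level of most members in double-negative cells, which enter this test.

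Other genes of these pathways, Ntng2 and Ntn5 among them, were read from a list of 75 symbols, of which 71 had values, as 73 identifiers. The F test over the 4 populations called 62 of these (84.9%, beside 66.0% of all genes) and that over the 3 populations with a marker 37 (50.7%, beside 29.6%). In double-positive cells 8 were higher (3.22% of all genes) and 2 lower (2.13%) than in Pdgfrα single-positive cells, and 18 higher (13.1%) and 10 lower (11.1%) than in GFP single-positive cells. In GFP single-positive cells 53 were higher (30.1%) and 4 lower (23.6%) than in double-negative cells, and in Pdgfrα single-positive cells 54 (32.9%) and 3 (26.8%). Dpysl3, a cytoplasmic protein of semaphorin signalling, had values of 625 and 653 in Pdgfrα single-positive cells, 395 and 361 in double-positive cells, 29.0 and 27.4 in GFP single-positive cells and 8.19 and 3.89 in double-negative cells. Srgap3, a partner of Robo receptors, had values of 167 and 189 in Pdgfrα single-positive cells, 125 and 144 in double-positive cells, 15.9 and 14.5 in GFP single-positive cells and 5.03 and 4.83 in double-negative cells. Both were high in Pdgfrα+ libraries without overlap with the others.

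Trio, an exchange factor used by netrin receptors, had values of 362 and 324 in Pdgfrα single-positive cells, 330.5 and 329.6 in double-positive cells, 299 and 271 in GFP single-positive cells and 17.95 and 15.7 in double-negative cells. Dpysl2, a relative of Dpysl3, had values of 414 and 433 in Pdgfrα single-positive cells, 285 and 291 in double-positive cells, 217 and 202 in GFP single-positive cells and 11.9 and 20.4 in double-negative cells. These were low in the double-negative libraries alone. Rgmb, a ligand of Neo1, had values of 127 and 149 in GFP single-positive cells, 52.3 and 75.2 in double-positive cells, 52.8 and 44.7 in Pdgfrα single-positive cells and 1.58 and 2.24 in double-negative cells. L1cam, a co-receptor for Sema3a with Nrp1, had values of 58.6 and 61.6 in GFP single-positive cells, 12.3 and 4.46 in double-positive cells, 4.66 and 3.12 in Pdgfrα single-positive cells and 0.718 and 1.30 in double-negative cells. Met, which associates with plexins of the B class, had values of 87.5 and 76.0 in GFP single-positive cells, 5.39 and 15.1 in double-positive cells, 11.5 and 12.9 in Pdgfrα single-positive cells and 1.29 and 1.30 in double-negative cells. All 3 were highest in both GFP single-positive libraries. They were picked after their values were seen, and others of the list differed. Flrt2 had means of 126 in double-positive, 119 in Pdgfrα single-positive and 38.0 in GFP single-positive cells. Rgma, highest in GFP single-positive cells by mean, and Ptk7 were not called in the F test over the 3 populations with a marker (adjusted p = 0.0665 and 0.345). Gpc1, which can bind Slits, had values of 145 and 102 in double-positive cells, 117 and 117 in GFP single-positive cells, 46.0 and 29.8 in Pdgfrα single-positive cells and 4.16 and 5.54 in double-negative cells. It was higher in GFP+ than in GFP- libraries.

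Upstream sequences are shown for 5 of the 14 promoters of members called highest in double-positive or GFP single-positive cells: the 4 that held a match to the motifs below, and that of Nrp2, for its level in double-positive cells. RefSeq promoters on build GRCm38.p6, 250 bases before the gene start, matched 55 of the 64 member symbols with 71 promoters. Sequences were searched on both strands for ACAAAG or AACAAT (letters bound by SOX factors), for TGTGGT (RUNX) and for CAGCTG (an E-box), motifs chosen with the results known. The letters were found in 8, 8 and 9 of the 71 promoters, or 11.3%, 11.3% and 12.7%, beside 24.0%, 14.0% and 13.0% of all 32851 promoters. Among members called highest in double-positive cells, 0, 1 and 1 of 7 promoters held them, and in GFP single-positive cells 1, 1 and 2 of 7. In Plxnb3 the SOX letters start 206 and 162 bases before the gene start (as ATTGTT, the other strand of AACAAT, and as ACAAAG), the E-box letters 152 and the RUNX letters 148 bases before it, and this last pair shares 2 bases. A match describes letters only. The sequences lie at chrX:73756853-73757102 for Plxnb3, chr14:31217623-31217872 for Sema3g, chr3:141465314-141465563 for Unc5c, chr9:57939862-57940111 for Sema7a and chr1:62703067-62703316 for Nrp2, all on the + strand, written 5′ to 3′ with matches in capitals and none in Nrp2.
Plxnb3: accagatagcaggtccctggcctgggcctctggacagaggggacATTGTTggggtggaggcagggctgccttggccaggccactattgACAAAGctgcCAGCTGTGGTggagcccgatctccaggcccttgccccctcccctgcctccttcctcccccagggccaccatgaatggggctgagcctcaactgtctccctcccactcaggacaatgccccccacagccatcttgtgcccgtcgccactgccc
Sema3g: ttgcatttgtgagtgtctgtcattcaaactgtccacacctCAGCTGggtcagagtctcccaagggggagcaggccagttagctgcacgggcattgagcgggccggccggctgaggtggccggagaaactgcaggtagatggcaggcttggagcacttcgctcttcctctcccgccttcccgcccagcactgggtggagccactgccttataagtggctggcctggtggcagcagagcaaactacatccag
Unc5c: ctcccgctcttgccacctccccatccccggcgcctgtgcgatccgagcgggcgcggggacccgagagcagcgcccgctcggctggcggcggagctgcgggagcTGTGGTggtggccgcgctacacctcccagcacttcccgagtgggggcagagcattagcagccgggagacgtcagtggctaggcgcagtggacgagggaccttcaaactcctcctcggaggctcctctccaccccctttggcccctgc
Sema7a: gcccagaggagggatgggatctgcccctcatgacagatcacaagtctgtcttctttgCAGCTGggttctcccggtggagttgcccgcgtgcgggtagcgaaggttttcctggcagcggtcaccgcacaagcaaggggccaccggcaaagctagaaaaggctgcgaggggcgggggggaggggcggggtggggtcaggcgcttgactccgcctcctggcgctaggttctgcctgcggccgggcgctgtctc
Nrp2: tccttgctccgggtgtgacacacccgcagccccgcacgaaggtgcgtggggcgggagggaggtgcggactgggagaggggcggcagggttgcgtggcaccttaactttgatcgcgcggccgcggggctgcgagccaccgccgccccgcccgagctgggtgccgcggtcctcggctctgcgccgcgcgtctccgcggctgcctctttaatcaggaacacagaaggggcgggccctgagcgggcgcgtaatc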

How the data were processed

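Adaptors were removed with cutadapt and reads were counted on transcripts of build NCBIM37 with RSEM 1.17, as the submitters' processing notes say, which also name Picard and limma. The deposited signal is the one the authors normalized: each read number plus 0.5, scaled to 1e6 effective reads in its library, and dividing out the step of 1 read gave whole reads within 0.1 for 100% of values under 1000 reads. Identifiers were matched to GENCODE M1, 15849 of 15880, and exon lengths were taken from it.

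Values were fitted as log2(value + 1) in limma 3.58.1 (R 4.3.3) with 1 coefficient per population and a mean-variance trend. P-values were adjusted over all 15880 genes. edgeR 4.0.16 and voom were run on the recovered reads as alternatives. The code was tested on simulated data first. The labels state no pairing of replicates and none was fitted. Correlations of replicate deviations between populations were 0.00433 to 0.0812. A log2 difference over 2 between the replicate numbers, in the same direction in all 4 populations, was seen for 1 gene, which is not a member, so each number may mark a pool that the populations share. A fit with replicate as a block was run as an alternative.

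Members, marker lists and the list of other pathway genes were chosen with earlier results of these data known. Values in all libraries are given for the 2 members of each family with the highest mean, for the 5 called members with the largest and the 5 with the smallest difference in each of the 4 comparisons that change 1 marker, and for up to 6 with the largest called interaction. From the other pathway genes, up to 4 with the lowest adjusted p of the F test and co-receptors are given. Robo4, the levels of other members, the red blood cell genes and the co-receptors picked were chosen after their values were seen.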

Additional observations from a re-analysis of the deposited data

Results flagged for a closer look

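The difference between GFP+ and GFP- cells was not the same among Pdgfrα+ and Pdgfrα- cells for the members below, by the interaction test in limma (adjusted p at most 0.05), given as the difference of the log2 differences. It was −5.76 for Ntn1, −5.56 for Sema3e, −5.05 for Sema6a, −4.95 for Sema3c and −4.07 for Plxnb2. For Sema4d it was 5.01, with GFP going with higher values among Pdgfrα+ cells and with lower values among Pdgfrα- cells. Ntn1, Sema3c and Sema3e took the opposite course, lower with GFP among Pdgfrα+ cells and higher with GFP among Pdgfrα- cells. Their means in GFP+ Pdgfrα- and GFP- Pdgfrα- cells were 34.6 and 1.13, 64.7 and 3.06, and 23.0 and 0.838. Among Pdgfrα+ cells the calls of Sema3c and Sema3e were lost without any 1 library with a marker. Pdgfrα went with opposite called differences in GFP+ and GFP- cells for Plxna2 (interaction −2.51), Plxnc1 (1.76), Sema4b (3.67) and Sema4f (−2.52), as it did for Sema3e, Sema6a and Sema4d. In GFP+ cells that call was lost without replicate 1 of GFP+ Pdgfrα- cells for Plxnc1 (log2 0.76), Sema4b (0.69) and Sema4f (−1.07), among other libraries, and so were those of Sema3e (−1.45) and Sema6a (−1.62). In GFP- cells the call was lost without replicate 1 of GFP- Pdgfrα- cells for Plxnc1 (−0.74) and Sema4f (1.17), among other libraries.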

How the results depend on the processing

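None of the 299 called differences of members changed sign in any alternative. The replicate block kept 298 of the 299 calls: Efna5 in GFP- Pdgfrα+ against GFP+ Pdgfrα- cells lost its call. With the block, members called were 16 for GFP+ Pdgfrα+ against GFP- Pdgfrα+ cells, 40 against GFP+ Pdgfrα- cells and 58 against GFP- Pdgfrα- cells. Library weights kept 298, edgeR 291, voom 286, centring 284 and quantile normalization 272. A fit with no mean-variance trend kept 275, and an adjusted p of at most 0.01 kept 251.

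For GFP+ Pdgfrα+ against GFP- Pdgfrα+ cells, the 16 members called became 10 at an adjusted p of at most 0.01 and 10 with a pseudocount of 0.1, and the cause of the latter was not tested. For GFP+ Pdgfrα+ against GFP+ Pdgfrα- cells, 39 became 25 at 0.01. A fit of the 3 populations with a marker, chosen after seeing the data, called 20 and 41.

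Leaving out 1 library in turn gave 6 to 20 members called for GFP+ Pdgfrα+ against GFP- Pdgfrα+ cells, 21 to 39 against GFP+ Pdgfrα- cells and 54 to 58 against GFP- Pdgfrα- cells. It gave 51 to 55 for GFP+ Pdgfrα- and 50 to 55 for GFP- Pdgfrα+ against GFP- Pdgfrα- cells, and 22 to 37 for GFP- Pdgfrα+ against GFP+ Pdgfrα- cells. The interaction gave 38 to 45, the F test over 4 populations 59 to 62 and that over 3 populations 30 to 45. A lone library was assumed to vary like the other groups.

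Dcc, a member near the floor of 3 reads, was not called in the F test over 4 or over 3 populations. Whether its differences could be detected at this depth with 2 libraries per population was not tested. Efna3 and Unc5d, also near the floor, were called only for GFP+ Pdgfrα+ against GFP- Pdgfrα- cells (log2 1.17 and 1.71) and, for Unc5d, in the F test over 4 populations. Reads that overlapping genes share were not separated.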
